A study of Mus musculus with 12 samples.

Results

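The perilipins and the CIDE proteins coat the lipid droplets of fat cells, and 10 genes of this machinery were followed in interscapular brown adipose tissue of the mouse. They are the perilipins Plin1, Plin2, Plin3, Plin4 and Plin5, the CIDE genes Cidea, Cideb and Cidec, and Fitm2 and Bscl2, which act in the endoplasmic reticulum where droplets form. The members were taken by name, 10 of the 54356 annotated genes that the transcripts in the files belong to, and the reads of all transcripts of a gene were summed. All 12 animals were male wild type C57BL/6N mice aged 20 weeks, 6 labelled cold and 6 labelled ctrl, each with its own mouse number, which is used here as its name. The treatment text gives 24 h of single housing at 4 °C before the tissue was taken. It stands on the ctrl animals as well as on the cold ones, and it was read as meant for the cold animals. Husbandry at 22 °C to 24 °C is given for the colony, and if the ctrl animals shared cages on the last day, the effects of cold and of single housing cannot be told apart. The design text counts 3 cold animals where the labels hold 6, and eWAT appears in the extraction text of tissue labelled as interscapular brown adipose tissue. The labels were followed. PolyA RNA was read as strand-specific pairs of 50 nt.

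In a fat cell, triglyceride is made in the membrane of the endoplasmic reticulum and buds into droplets, a step in which FITM2 and seipin, the product of Bscl2, take part. Perilipins then cover the droplet surface and control the access of lipases, and CIDE proteins gather where droplets touch and pass lipid from the smaller to the larger droplet. Brown adipocytes hold many small droplets beside their mitochondria and draw on them for fuel when noradrenaline calls for heat.

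The libraries held 16.0 to 31.4 M estimated reads. The members had between 158 and 106637 reads per library, and Cideb was the only one under 1912 in any library. The brown adipocyte gene Ucp1, for the uncoupling protein of heat production, was abundant in both groups. Its mean was 10071 CPM (counts scaled to a common library size, with TMM factors) in cold animals and 8629 CPM in ctrl animals. The ranges overlapped, and Ucp1 did not pass the test between the groups (edgeR adjusted p = 0.135). Ctrl 2 stands apart from the other libraries in that transcripts with an effective length under 50 nt took 55.2% of its TPM (length-scaled abundance), against 2.36% to 8.41% in the other 11, and cold 15 had the most skeletal muscle RNA.

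In cold animals 5 of the 10 members were higher (Plin2, Plin5, Cidea, Cidec and Fitm2), 1 was lower (Plin4) and 4 did not pass the test (Plin1, Plin3, Cideb and Bscl2). The test was edgeR's quasi-likelihood test, two-sided, with Benjamini-Hochberg adjustment over the 13876 genes that passed a filter on low counts and a threshold of 0.05; all 10 members passed the filter. Called in the same fit were 31.6% of all genes, 16.2% higher and 15.4% lower in cold animals, against 60% of the members. These shares are not of like genes. Apart from Cideb, at percentile 44.8, the members lay between percentiles 92.1 and 99.7 of mean level among the genes tested. The share called among genes of like level was not computed, and the members were chosen with earlier results of these data known. The median log2 fold change of the members was 0.23, and over all genes it was -0.01 with a median size of 0.23. Cold and ctrl ranges were separate for 2 members, Plin2 and Cidec, 20% of the members beside 16.3% of all genes tested. Summed over the members, cold animals held 9006 ± 879.9 CPM and ctrl animals 7018 ± 432 CPM (SD, n = 6 each). In whole tissue, fewer cells of a type and less RNA per cell cannot be told apart.

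**Figure D1:**
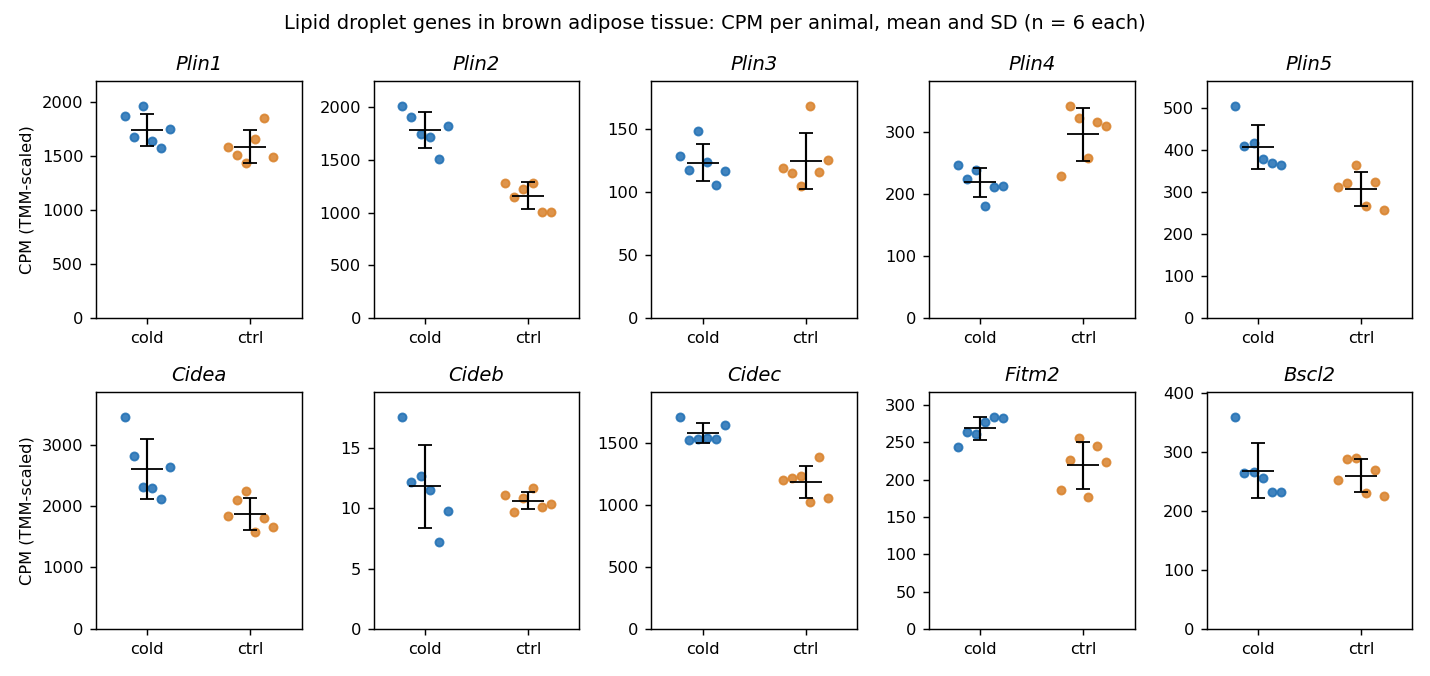
CPM of each member in the 6 cold and the 6 ctrl animals, 1 point per animal, with the mean (bar) and SD (whiskers), each panel on its own axis from 0. The cold points lie wholly above the ctrl points for Plin2 and Cidec, while Plin1, Plin3, Cideb and Bscl2 mix.

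Of the 5 perilipins, Plin2 and Plin5 rose, Plin4 fell, and Plin1 and Plin3 did not pass. Plin2 (chr4:86648386-86670060, GENCODE M21 on GRCm38, as for all members), the perilipin that covers droplets in most cell types and is stable as protein only when bound to lipid, moved most. Its lowest, median and highest values were 1506, 1782 and 2006 CPM in cold animals, against 1005, 1186 and 1285 CPM in ctrl animals, so that every cold animal stood above every ctrl animal. It averaged 1783 ± 173 CPM in cold animals and 1158 ± 128 CPM in ctrl animals (SD, n = 6 each), with a log2 fold change of 0.62 ± 0.09 (SE; edgeR adjusted p = 7.60e-05). Plin1 (chr7:79720218-79732903), the main coat of the adipocyte droplet, which holds back lipolysis until protein kinase A acts on it, had a lowest, median and highest value of 1574, 1714 and 1961 CPM in cold animals, against 1434, 1546 and 1857 CPM in ctrl animals. These ranges overlapped, and the log2 fold change of 0.14 ± 0.08 (SE) had an edgeR adjusted p of 0.242, with a 95% interval of -0.04 to 0.31.

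Plin5 (chr17:56111601-56117596), the perilipin of oxidative tissues, which tethers droplets to mitochondria, rose. Cold animals had a lowest, median and highest value of 363, 393 and 503 CPM, against 257, 316 and 363 CPM in ctrl animals. The 2 ranges met at the edge, between cold 16 and ctrl 6, and cold 4 stood highest. Mean levels were 406 ± 52.1 CPM in cold animals and 307 ± 39.4 CPM in ctrl animals (SD, n = 6 each), with a log2 fold change of 0.40 ± 0.10 (SE; edgeR adjusted p = 0.00610). Plin4 (chr17:56100591-56109803), an adipocyte perilipin with a long repeat that binds lipid surfaces, fell. It had a lowest, median and highest value of 181, 219 and 248 CPM in cold animals, against 230, 314 and 342 CPM in ctrl animals. All ctrl animals except ctrl 2 lay above all cold animals. The means were 219 ± 23.7 CPM in cold animals and 297 ± 42.8 CPM in ctrl animals (SD, n = 6 each), and the log2 fold change was -0.44 ± 0.10 (SE; edgeR adjusted p = 0.00420). Plin3 (chr17:56277476-56292873), which moves from the cytosol to young droplets, had values of 105, 120 and 148 CPM (lowest, median, highest) in cold animals, against 105, 117 and 168 CPM in ctrl animals, with a log2 fold change of -0.02 ± 0.11 (SE; edgeR adjusted p = 0.933). The groups overlapped, and the highest value belonged to ctrl 9.

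Plin4 and Plin5 are neighbours on chromosome 17. They lie on the same strand with 1797 bp and no annotated gene between them, and Plin3 lies 159879 bp further on with 11 genes between. Plin5 rose and Plin4 fell across this short gap. The sequences before the starts of the perilipins that passed the test are shown because these genes moved in both directions. They are RefSeq windows of 250 bases before to 50 bases after a start on GRCm38.p6, all read on the minus strand, for Plin2 at chr4:86670010-86670309, for Plin4 at chr17:56109733-56110032, and for Plin5 at chr17:56117499-56117798 (upstream start) and chr17:56117249-56117548 (downstream start). Capitals mark a nuclear receptor hexamer (AGGTCA, on either strand) or a CCAAT box (CCAAT, on either strand). The last 50 bases of the upstream Plin5 window are the first 50 of the downstream one.
Plin2: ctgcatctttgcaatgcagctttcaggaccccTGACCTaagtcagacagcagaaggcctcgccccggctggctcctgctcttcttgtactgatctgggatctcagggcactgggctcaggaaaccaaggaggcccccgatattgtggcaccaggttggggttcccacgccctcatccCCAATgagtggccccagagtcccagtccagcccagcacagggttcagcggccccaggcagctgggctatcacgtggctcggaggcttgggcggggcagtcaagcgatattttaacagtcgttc
Plin4: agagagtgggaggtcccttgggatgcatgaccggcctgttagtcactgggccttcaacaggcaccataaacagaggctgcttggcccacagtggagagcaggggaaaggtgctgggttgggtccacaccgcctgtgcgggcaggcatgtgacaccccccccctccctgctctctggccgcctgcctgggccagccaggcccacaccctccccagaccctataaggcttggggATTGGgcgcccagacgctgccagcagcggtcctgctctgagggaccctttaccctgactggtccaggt
Plin5 upstream: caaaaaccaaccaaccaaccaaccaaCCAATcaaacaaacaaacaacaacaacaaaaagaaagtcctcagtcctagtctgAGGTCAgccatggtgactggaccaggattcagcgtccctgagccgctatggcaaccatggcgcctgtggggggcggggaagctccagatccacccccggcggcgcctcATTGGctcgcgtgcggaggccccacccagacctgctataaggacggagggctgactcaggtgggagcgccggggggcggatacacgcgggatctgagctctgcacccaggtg
Plin5 downstream: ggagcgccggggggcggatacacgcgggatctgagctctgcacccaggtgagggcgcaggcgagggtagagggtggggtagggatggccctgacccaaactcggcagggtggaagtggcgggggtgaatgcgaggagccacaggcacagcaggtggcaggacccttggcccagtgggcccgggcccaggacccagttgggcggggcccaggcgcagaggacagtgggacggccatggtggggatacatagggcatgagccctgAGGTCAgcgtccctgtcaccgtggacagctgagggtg
The hexamer AGGTCA, the unit from which sites of PPAR and related nuclear receptors are built, was found at -218 before Plin2 (on the other strand), at -170 before the upstream start of Plin5 and at 14 after its downstream start, counted from the start to the leftmost base of the match. It was absent from the Plin4 window. Among the members not printed here it lay at -202 before the start of Bscl2-206, a transcript without reads in any animal. The windows of Plin1, Plin3, Cideb, Cidec and Fitm2 did not hold it, although Cidec and Fitm2 rose. Over the 32851 windows of all genes 16.3% held the hexamer. CCAAT was found at -73 of Plin2, at -18 of Plin4 and at -224 and -62 of the upstream window of Plin5, and 37.4% of all windows held it. Among the members not printed here it lay at -75 of Plin3 and at -187, -69 and 18 of the window of Bscl2-210. Neither Plin3 nor Bscl2 passed the test between the groups.

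None of the 13 windows of the 9 members searched held the full PPAR element, in which the hexamer is repeated in the same direction with 1 base between, or its looser form with the fourth base of each hexamer free, found on either strand in 0.0396% and 0.381% of all windows. The same held for the estrogen-related receptor element TCAAGGTCA and the cAMP response element TGACGTCA, both searched on both strands and found in 0.423% and 1.79% of all windows. No window of Cidea was searched.

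Of the 3 CIDE genes, 2 rose and 1 did not pass the test. Cidea (chr18:67343604-67367785), the CIDE gene characteristic of brown adipocytes, had a lowest, median and highest value of 2116, 2472 and 3446 CPM in cold animals, against 1574, 1822 and 2246 CPM in ctrl animals. The ranges overlapped, with cold 15 under the highest ctrl animal and cold 4 far above the other cold animals. Mean levels were 2602 ± 484 CPM in cold animals and 1870 ± 255 CPM in ctrl animals (SD, n = 6 each), with a log2 fold change of 0.48 ± 0.12 (SE; edgeR adjusted p = 0.00616). Without cold 4 it was 0.38. Cidec (chr6:113424634-113435760), also called FSP27, which gives white adipocytes their large single droplet, had values of 1522, 1534 and 1705 CPM (lowest, median, highest) in cold animals, against 1020, 1207 and 1380 CPM in ctrl animals. Every cold animal stood above every ctrl animal, and the cold values lay close together, with an SD of 4.86% of the mean, the smallest of the members in cold animals. Cidec averaged 1577 ± 76.7 CPM in cold animals and 1184 ± 130 CPM in ctrl animals (SD, n = 6 each), and the log2 fold change was 0.41 ± 0.08 (SE; edgeR adjusted p = 0.00102).

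Cideb (chr14:55754050-55758458), the CIDE gene of liver, where it serves the loading of lipoproteins with lipid, was the rarest member. Its values were 7.21, 11.8 and 17.5 CPM (lowest, median, highest) in cold animals, against 9.71, 10.6 and 11.6 CPM in ctrl animals, with both extremes among the cold animals, the lowest in cold 15 and the highest in cold 4. The log2 fold change was 0.16 ± 0.16 (SE; edgeR adjusted p = 0.482). Of its 1488 exonic bases, 1136 are shared with Nop9 on the opposite strand, a gene with a mean of 229 reads beside 235 for Cideb. The libraries keep strand, but the strand setting of the quantification is not stated in the sources at hand, so the level of Cideb is uncertain.

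Fitm2 (chr2:163466379-163472629), which binds triglyceride in the endoplasmic reticulum and is needed for droplets to bud, rose by little. Its lowest, median and highest values were 243, 271 and 284 CPM in cold animals, against 177, 225 and 256 CPM in ctrl animals. Only cold 4 lay inside the range of the ctrl animals, and cold 4 was thus the lowest cold animal for Fitm2 and the highest for 7 other members. The means were 269 ± 15.6 CPM in cold animals and 219 ± 31.8 CPM in ctrl animals (SD, n = 6 each), with a log2 fold change of 0.30 ± 0.09 (SE; edgeR adjusted p = 0.0245). This call was lost without cold 16 (adjusted p = 0.0509), without ctrl 2 (0.0601) and without ctrl 9 (0.0532), and the adjusted p ran from 0.00795 to 0.108 over 23 alternative settings. Bscl2 (chr19:8837467-8848683), for seipin, had values of 231, 260 and 358 CPM (lowest, median, highest) in cold animals, against 225, 261 and 290 CPM in ctrl animals. Cold 4 stood far above the other cold animals, and the log2 fold change was 0.05 ± 0.11 (SE; edgeR adjusted p = 0.778), or -0.05 without cold 4. Bscl2 shares 239 of its 5897 exonic bases with AC129217.1 on the same strand, which had a mean of 40.7 reads beside 5545 for Bscl2.

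**Figure D2:**
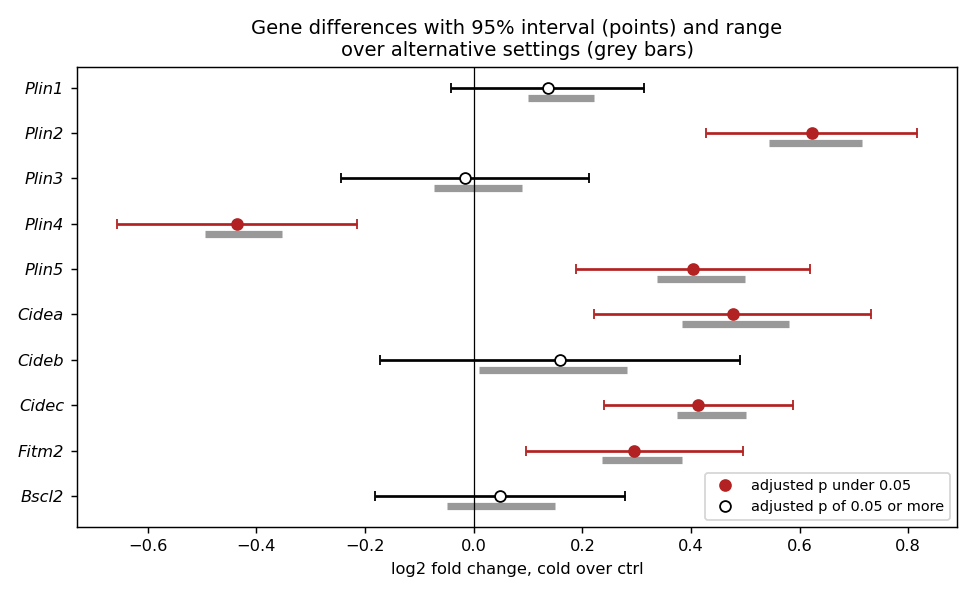
Log2 fold change of each member, cold over ctrl, with its 95% interval (points and whiskers; filled red where the edgeR adjusted p was under 0.05), and the range of the same value over 23 alternative settings (grey bars). Plin2 lies highest at 0.62 and Plin4 lowest at -0.44, and the grey bars of the 6 members past the threshold stay on their side of 0.

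Levels of different genes were compared as CPM per kb of annotated transcript length. Cidea was the most abundant member, at 2334 ± 434 CPM per kb in cold animals and 1677 ± 229 in ctrl animals (SD, n = 6 each). Below it, in cold animals, came Cidec at 1214, Plin2 at 1114, Plin1 at 900.5, Plin5 at 204, Bscl2 at 183, Fitm2 at 67.8, Plin4 at 38.1, Plin3 at 35.6 and Cideb at 9.79 CPM per kb. The order in ctrl animals was the same except that Plin1 (837) stood above Plin2 (757) and Bscl2 (177) above Plin5 (155 CPM per kb). Within animals, Plin2 exceeded Plin1 in 6 of 6 cold animals and in 2 of 6 ctrl animals. Plin5 exceeded Bscl2 in 6 of 6 cold animals and in 0 of 6 ctrl animals, and the ratio of Bscl2 to Plin5 was 0.892 ± 0.0489 in cold animals and 1.15 ± 0.0504 in ctrl animals (SD, n = 6 each). Both of these switches were noticed in the values and carry no test. The switch of Plin5 and Bscl2 depends on the length used. As shares of summed TPM, scaled by effective length, Bscl2 exceeded Plin5 in every cold animal too, with means of 3.12% and 2.93%. By that measure Plin2 exceeded Plin1 in most ctrl animals, although the ctrl means were 17.8% and 18.3%. In cold animals the mean of Plin2 (19.8%) was then above that of Cidec (19.2%), and Plin3 (0.541%) above Plin4 (0.504%). By CPM per kb, other genes next to each other in the order also crossed. Cidec exceeded Plin2 in 4 of 6 cold animals and 5 of 6 ctrl animals, and it exceeded Plin1, its neighbour in ctrl animals, in 6 of 6 cold animals and 5 of 6 ctrl animals. Fitm2 exceeded Plin4 in 6 of 6 cold animals and 4 of 6 ctrl animals, and Plin3 exceeded Plin4 in 2 of 6 cold animals and 1 of 6 ctrl animals.

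As shares of the summed TPM of the 10 members, the genes Cidea, Cidec, Plin1 and Plin2 together made up 91.1% to 92.5% in cold animals and 89.6% to 90.9% in ctrl animals. Plin4 held 0.504% ± 0.0504 of the sum in cold animals and 0.909% ± 0.120 in ctrl animals, and Bscl2 held 3.12% ± 0.324 in cold animals and 3.94% ± 0.262 in ctrl animals (SD, n = 6 each); for both genes every cold animal lay below every ctrl animal. Among the perilipins alone, Plin1 held 38.8% ± 2.73 in cold animals and 45.2% ± 3.94 in ctrl animals, with every cold animal below every ctrl animal. The edges nearly met, at 42.20% in cold 15 and 42.27% in ctrl 6. Those of Bscl2 among the 10 members were close as well, at 3.65% in cold 4 and 3.68% in ctrl 2. Plin2 held 50.9% ± 2.71 in cold animals and 43.7% ± 4.12 in ctrl animals, where the ranges overlapped. Within the CIDE genes Cidea held 65.9% ± 3.80 in cold animals and 65.4% ± 3.39 in ctrl animals (SD, n = 6 each). A share of this kind is set by the other genes in the sum as well as by the gene itself.

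**Figure D3:**
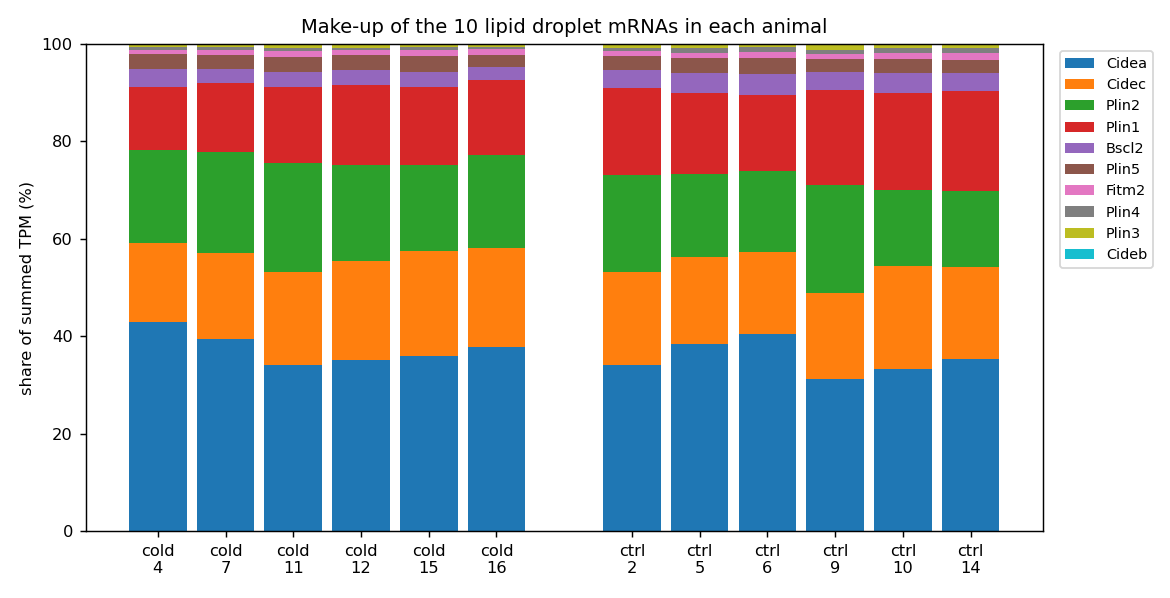
Share of each member in the summed TPM of the 10 members, in percent, stacked for each of the 6 cold (left) and 6 ctrl (right) animals, named by group and mouse number. The 4 most abundant genes fill 91.1% to 92.5% of the bar in cold animals and 89.6% to 90.9% in ctrl animals.

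The members have 39 annotated transcripts, of which 34 passed the filter on low counts. At the level of transcripts, edgeR called 9 of them, 6 higher and 3 lower in cold animals, which is 26.5% beside 10.3% of all 30345 transcripts tested. These calls are not independent of the gene calls. Cidea-201 and Fitm2-201, both called, are the only transcripts of their genes. The called Cidec-201 and Plin4-202 each have a near-identical partner, so the split of reads is uncertain. Plin2-201, the full-length coding transcript of Plin2, carried the rise of its gene, at 1658 ± 156 CPM in cold animals and 1026 ± 94.0 CPM in ctrl animals (SD, n = 6 each), with a log2 fold change of 0.69 ± 0.08 (SE; edgeR adjusted p = 2.23e-04). A short non-coding transcript, Plin2-202, went the other way from a low level, at 4.65 ± 0.428 CPM in cold animals and 7.25 ± 1.39 CPM in ctrl animals (SD, n = 6 each; edgeR adjusted p = 0.0158). Plin5 has 2 transcripts with starts 298 bp apart, both encoding 463 codons. The transcript of the downstream start, Plin5-202, had 342 ± 46.8 CPM in cold animals and 240 ± 29.2 CPM in ctrl animals, with every cold animal above every ctrl animal and a log2 fold change of 0.51 ± 0.10 (SE; edgeR adjusted p = 0.00752). Plin5-201, of the upstream start, had 71.1 ± 10.8 CPM in cold animals and 66.2 ± 10.8 CPM in ctrl animals (log2 fold change 0.10 ± 0.13, SE; edgeR adjusted p = 0.757). The downstream start held 82.7% ± 1.56 of the TPM of Plin5 in cold animals and 78.4% ± 1.98 in ctrl animals (SD, n = 6 each), and the test of usage gave an adjusted p of 0.259 (edgeR diffSpliceDGE).

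Usage could be tested for 7 members, and Cidec was the 1 whose transcripts changed in relative use, beside 1.45% of the 7233 genes tested (edgeR diffSpliceDGE, adjusted p = 0.00734). Limma's diffSplice gave an adjusted p of 0.00676. Without ctrl 2 and cold 15 the call was lost in edgeR (adjusted p = 0.0761) and kept in limma (0.0326), and with each animal left out in turn the adjusted p ran from 0.00327 to 0.0376 in edgeR and from 0.00432 to 0.0305 in limma. Cidec has an upstream start, used by Cidec-201 and Cidec-202, and a downstream start 996 bp away, used by Cidec-203. The upstream transcripts encode 239 codons and Cidec-203 encodes 249, and the longer product is described in mouse as FSP27β. The test of usage covers the 4 transcripts of the gene together and does not single out a change between these starts. The windows at both starts are printed to show where these transcripts begin, at chr6:113435711-113436010 (upstream) and chr6:113434715-113435014 (downstream), RefSeq on GRCm38.p6, minus strand. Capitals mark a C/EBP element (TTGCNNAA on either strand, found in 10.8% of all windows) and, near the right end of the downstream window, the start codon of Cidec-203.
Cidec upstream: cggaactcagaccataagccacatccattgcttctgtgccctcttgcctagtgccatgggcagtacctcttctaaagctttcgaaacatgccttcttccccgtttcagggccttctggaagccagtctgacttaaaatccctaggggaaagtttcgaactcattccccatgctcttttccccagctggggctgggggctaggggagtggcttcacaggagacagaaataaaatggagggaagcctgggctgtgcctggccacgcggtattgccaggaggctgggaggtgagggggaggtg
Cidec downstream: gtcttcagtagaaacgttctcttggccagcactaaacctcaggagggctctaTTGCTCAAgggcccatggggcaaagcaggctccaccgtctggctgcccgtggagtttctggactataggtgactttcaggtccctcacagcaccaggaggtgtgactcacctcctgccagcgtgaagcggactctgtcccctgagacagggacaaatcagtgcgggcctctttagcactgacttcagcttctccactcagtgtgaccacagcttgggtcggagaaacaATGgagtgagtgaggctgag
The C/EBP match lies at -198 before the downstream start and the start codon at 31 after it, while the upstream window holds no match and no start codon. The element was also found at -187 and -58 in the window of Plin1, which did not pass the test between the groups.

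Transcripts of the downstream start of Cidec made up 34.1% to 49.2% of the TPM of the gene in cold animals, a mean of 44.8% ± 5.64, and 29.8% to 43.3% in ctrl animals, a mean of 38.5% ± 5.04 (SD, n = 6 each). These ranges overlapped, and cold 4 was the lowest cold animal. Cidec-203 had 411 ± 54.5 CPM in cold animals and 260 ± 40.5 CPM in ctrl animals (SD, n = 6 each), with every cold animal above every ctrl animal and a log2 fold change of 0.66 ± 0.12 (SE; edgeR adjusted p = 0.00363). Of the upstream transcripts, Cidec-201 stood at a log2 fold change of 0.55 ± 0.12 (SE; edgeR adjusted p = 0.0132) and Cidec-202 at 0.23 ± 0.11 (adjusted p = 0.262). Their starts lie 4 nt apart, so the split between these 2 is uncertain. Cidec-204, a short transcript with an incomplete reading frame, held 2.72% ± 0.747 of the TPM in cold animals and 5.73% ± 1.00 in ctrl animals, with no overlap (SD, n = 6 each). Its level was low, at 6.25 ± 1.36 CPM in cold animals and 10.4 ± 2.52 CPM in ctrl animals (SD, n = 6 each). Its test among single transcripts gave the smallest p of the 4 for usage, 0.00880, which did not pass adjustment over the 24107 transcripts tested (edgeR diffSpliceDGE, two-sided), where 0.0747% were called. In the same test p was 0.297 for Cidec-203, 0.328 for Cidec-202 and 0.616 for Cidec-201 (edgeR diffSpliceDGE). The annotated end of Cidec-203 lies 923 nt short of that of Cidec-202, so reads from the last part of the gene can be assigned only to the upstream transcripts.

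**Figure D4:**
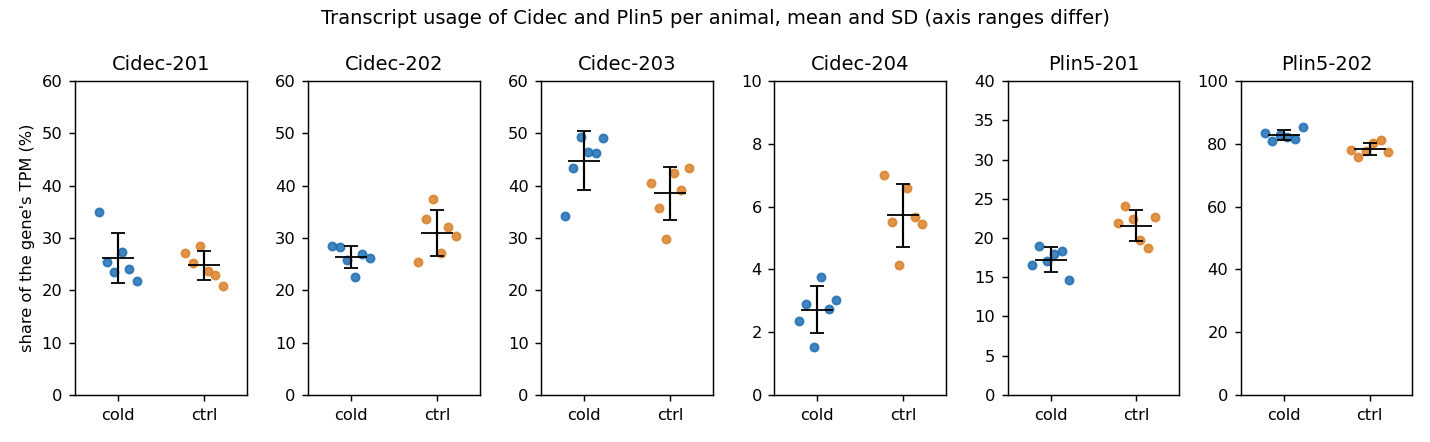
Share of each transcript in the summed TPM of its gene, in percent, for the 4 transcripts of Cidec and the 2 of Plin5, 1 point per animal with mean (bar) and SD (whiskers), cold left of ctrl; axis ranges differ between panels. Cidec-204 separates the groups, with all cold animals below all ctrl animals, and the other 5 panels overlap.

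For the other members no change in usage passed the test with all animals. Plin1 has 7 transcripts, and its usage had an adjusted p of 0.9998 in edgeR's diffSpliceDGE and 0.104 in limma's diffSplice, where it passed without cold 4 (0.0166) and without ctrl 14 (0.0446). The most used, Plin1-206, held 39.9% ± 2.20 of the TPM in cold animals and 37.2% ± 2.23 in ctrl animals (SD, n = 6 each). Plin1-202, which like Plin1-206 encodes 517 codons, held 10.1% ± 1.73 in cold animals and 10.9% ± 3.85 in ctrl animals, and Plin1-201, with 517 codons as well, 3.52% ± 4.34 in cold animals and 5.12% ± 3.92 in ctrl animals. The shorter Plin1-203, Plin1-204 and Plin1-205 held 13.4%, 18.8% and 11.6% in cold animals and 13.2%, 19.7% and 10.7% in ctrl animals, and all 6 overlapped between the groups. Beside Plin2-201, the short Plin2-206 held 14.9% ± 6.29 of the TPM of Plin2 in cold animals and 19.0% ± 5.64 in ctrl animals, and the non-coding Plin2-208 held 6.70% ± 1.11 in cold animals and 6.73% ± 0.713 in ctrl animals (SD, n = 6 each). Cideb-201 held 98.0% ± 1.36 of the TPM of Cideb in cold animals and 94.9% ± 3.52 in ctrl animals, the rest being Cideb-202, which keeps an intron. Bscl2-201 held 88.4% ± 1.93 of the TPM of Bscl2 in cold animals and 87.7% ± 1.84 in ctrl animals (SD, n = 6 each), and Bscl2-208, which keeps an intron, held 4.10% ± 0.773 in cold animals and 5.45% ± 0.958 in ctrl animals. Plin4-201 and Plin4-202 differ by 1 nt at the start, so their split has no meaning here. Plin3-202, a short transcript of Plin3 with an incomplete reading frame, held 7.66% ± 3.96 of the TPM, beside Plin3-201, in cold animals and 1.95% ± 1.77 in ctrl animals (SD, n = 6 each). The test of usage for Plin3 gave an adjusted p of 0.172 (edgeR diffSpliceDGE), and 0.0206 to 0.533 over the alternatives of that test, the lowest without ctrl 9. The level of Plin3-202 was 1.18 CPM in cold animals and 0.326 CPM in ctrl animals. Cidea and Fitm2 have 1 annotated transcript each.

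Genes that work with the members were read from 4 lists. Among 10 lipases and their regulators, 1 rose and 2 fell, beside 16.2% and 15.4% of all genes, with a median log2 fold change of -0.13. Mgll, which cleaves the last fatty acid from monoglyceride, rose to 2009 ± 184 CPM in cold animals, against 1373 ± 124 CPM in ctrl animals (SD, n = 6 each; log2 fold change 0.55 ± 0.09, SE; edgeR adjusted p = 1.18e-04). The carboxylesterase gene Ces1f fell to 10.3 ± 0.837 CPM in cold animals, against 31.7 ± 5.44 CPM in ctrl animals (edgeR adjusted p = 3.08e-08), and Pnpla3, a relative of the triglyceride lipase ATGL, to 111 ± 35.4 CPM in cold animals, against 246 ± 91.1 CPM in ctrl animals (adjusted p = 0.00558). The 7 that did not pass include Pnpla2, the gene of ATGL, at a log2 fold change of -0.17 ± 0.09 (SE), and Lipe, hormone-sensitive lipase, at -0.14 ± 0.08 (SE).

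Of 16 genes of triglyceride synthesis and droplet formation, 5 rose, 3 fell and 8 did not pass, so that 50% were called beside 31.6% of all genes (16.2% higher and 15.4% lower), with a median log2 fold change of 0.15. Agpat3, an acyltransferase of phospholipid and triglyceride synthesis, rose to 969 ± 30.6 CPM in cold animals, against 622 ± 38.4 CPM in ctrl animals (SD, n = 6 each; edgeR adjusted p = 3.47e-06). Dgat1, which makes triglyceride from diglyceride, rose to 446 ± 52.7 CPM in cold animals, against 295 ± 55.0 CPM in ctrl animals (edgeR adjusted p = 9.33e-04). Acsl3, an acyl-CoA synthetase of young droplets, fell to 32.1 ± 3.14 CPM in cold animals, against 55.6 ± 8.74 CPM in ctrl animals (edgeR adjusted p = 2.03e-05).

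Of 22 genes for other proteins of the droplet surface and its contacts, 19 could be tested, of which 4 rose, 5 fell and 10 did not pass, so that 47.4% were called beside 31.6% of all genes (16.2% higher and 15.4% lower), with a median log2 fold change of -0.03. Scaled by library totals in place of TMM factors, 6 were higher and 4 lower. Ldah, a droplet-bound hydrolase, rose to 68.1 ± 4.37 CPM in cold animals, against 45.6 ± 2.94 CPM in ctrl animals (SD, n = 6 each; edgeR adjusted p = 9.49e-06). Cyb5r3, a reductase found on several membranes and on droplets, fell to 83.0 ± 11.2 CPM in cold animals, against 138 ± 12.2 CPM in ctrl animals (edgeR adjusted p = 2.07e-05). Cavin1, a coat protein of caveolae, fell to 336 ± 37.6 CPM in cold animals, against 511 ± 43.1 CPM in ctrl animals (edgeR adjusted p = 6.78e-05).

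Of 16 transcriptional regulators of droplet genes, 4 rose, 12 did not pass and 0 passed in the lower direction (1 with skeletal muscle markers as a covariate), so that 25% were called beside 31.6% of all genes (16.2% higher and 15.4% lower), with a median log2 fold change of 0.09. They are Ppargc1a, Esrrg, Ppard and Esrra. Ppargc1a, the coactivator of mitochondrial genes, stood at a log2 fold change of 2.55 ± 0.16 (SE; edgeR adjusted p = 3.08e-08), Esrrg, an estrogen-related receptor, at 0.72 ± 0.16 (adjusted p = 0.00267) and Ppard, a nuclear receptor for fatty acids, at 0.36 ± 0.08 (adjusted p = 0.00313). Pparg, the master receptor of adipocytes, had 206 ± 13.3 CPM in cold animals and 190 ± 20.2 CPM in ctrl animals (SD, n = 6 each; edgeR adjusted p = 0.297).

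Markers of cells that the tissue could hold were summed per animal. Skeletal muscle markers passed the test in 0 of 13 cases and summed to 177 to 5407 CPM in cold animals, with cold 15 highest, and to 119 to 1577 CPM in ctrl animals. Each of the 13 had a higher mean in cold animals, with a median log2 fold change of 1.19. The median of the sums was 850 CPM in cold animals and 839 CPM in ctrl animals. With the muscle score as a covariate, the same count of 6 members was called. Macrophage markers summed to 60.4 to 89.6 CPM in cold animals and 48.9 to 82.9 CPM in ctrl animals, with 2 of 10 higher, Cd68 and Gpnmb, and 8 that did not pass. Fibroblast markers summed to 167 to 256 CPM in cold animals and 210 to 367 CPM in ctrl animals, with 3 of 6 lower, and endothelial markers to 702 to 880.1 CPM in cold animals and 655 to 890 CPM in ctrl animals, with 1 of 6 higher and 1 lower. White adipocyte markers summed to 440 to 633 CPM in cold animals and 107 to 269 CPM in ctrl animals, with 1 of 5 tested higher, Npr3, at 464 CPM in cold animals and 92.0 CPM in ctrl animals, and with Hoxc9 near 0. Brown adipocyte markers (Ucp1, Cox7a1, Adipoq, Fabp4, Kcnk3, Ebf2, Zic1 and Pparg) summed to 21630 to 29261 CPM in cold animals and 16918 to 24424 CPM in ctrl animals. Of these 8, 3 were higher (Fabp4, Kcnk3 and Zic1) and 1 was lower (Adipoq). The largest term was Fabp4, with a mean of 12175 CPM in cold animals and 9741 CPM in ctrl animals. The list holds general adipocyte genes such as Fabp4, Adipoq and Pparg, so its sum is not specific to brown adipocytes. Of the markers tested, 20% were called for macrophages, 50% for fibroblasts, 33.3% for endothelium, 20% for white and 50% for brown adipocytes. Over all genes 31.6% were called, 16.2% higher and 15.4% lower. No list had all its markers at 0. The part of the macrophage, fibroblast, endothelial and adipocyte markers in the members' differences was not tested.

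Individual animals moved several members together. Cold 4 was the highest cold animal for 7 members (Plin2, Plin4, Plin5, Cidea, Cideb, Cidec and Bscl2), and it also had the highest sum of brown adipocyte markers and the deepest library. Cold 15 was the lowest cold animal for 6 members (Plin1, Plin2, Plin3, Cidea, Cideb and Bscl2) and had the highest sum of skeletal muscle markers and the lowest of brown adipocyte markers in its group. Without cold 4 all 6 calls stood, and without cold 15 as well.

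**Figure D5:**
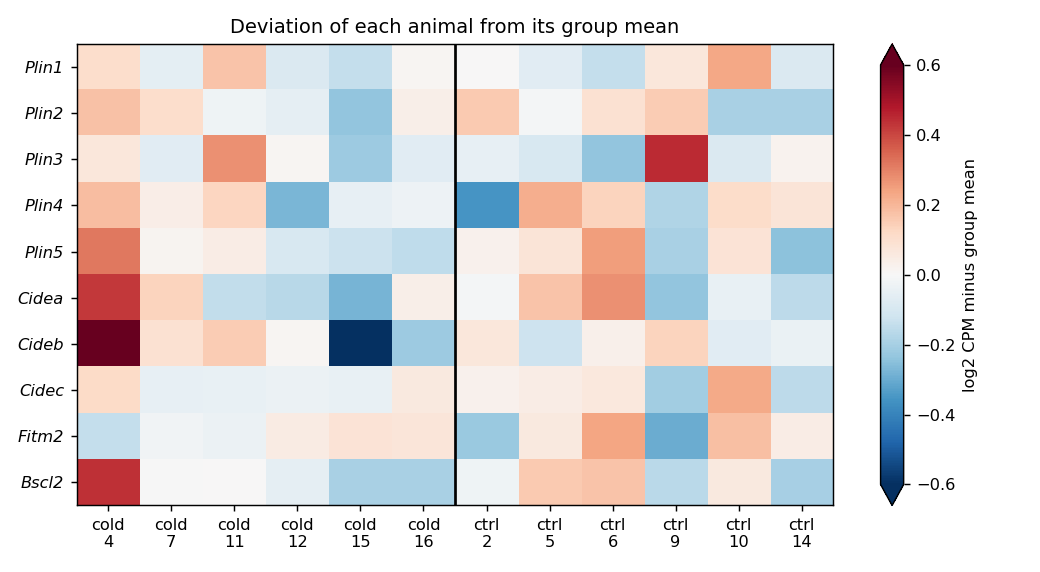
Log2 CPM of each member in each animal minus the mean of its own group, in colour (red above, blue below; the scale ends at 0.6 either way), cold animals left and ctrl animals right of the line. Cold 4 is red for 9 of the 10 members and blue for Fitm2, and ctrl 9 stands out in Plin3.

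After the group means were taken off, the 45 pairs of members had Pearson correlations of log2 CPM between -0.72 and 0.94 over the 12 animals, with a median of 0.35. The closest pair was Plin5 and Bscl2 (r = 0.94, Spearman's rho = 0.96), at r = 0.98 within cold animals and 0.95 within ctrl animals, and at 0.92 without cold 4 and ctrl 14, the 2 animals farthest from the median. Cidea followed Bscl2 (r = 0.85, rho = 0.77), at 0.64 without cold 4 and ctrl 6, and Plin5 (r = 0.83, rho = 0.71), at 0.74 without cold 4 and ctrl 14. Plin3 and Fitm2 ran most against each other (r = -0.72, rho = -0.85), at -0.60 without ctrl 9 and cold 11. All values of an animal share its library and scaling, and the pairs were ranked on these values, so they are descriptions.

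The genes outside the set whose deviations were most like those of a member were sought among the 10188 tested genes with a log2 CPM averaging 2 or more, and 3 were taken for each member, with r between 0.83 and 0.99 over 12 animals. Being the highest of 10188 values on 12 animals, these r are high by the choice itself. They are descriptions without a test, and they were not computed again with extreme animals left out. Cidea was followed most closely by Chchd4, which encodes an import protein of the mitochondrial intermembrane space (r = 0.99), and then by Atg101 and Timm17b, both at 0.97. Nearest to Plin5 were Hspbp1, Snx8 and S100a13 (r = 0.97 each), to Plin2 Rpia (0.96), Wdr53 (0.93) and Pmvk (0.92), and to Plin1 Nucb1, Cavin1 and Os9 (0.93 each), of which Cavin1 is the caveolar gene described among the surface proteins. Nearest to Plin3 were Slc38a10 (r = 0.93), Spats2 and Tubg1 (0.87 each), and to Plin4 Ddah2, Slc7a10 (0.84 each) and Rnf215 (0.83). Nearest to Bscl2 were Arf5 (r = 0.99), Trp53rka and Med29 (0.98 each), to Fitm2 Sgpl1 (0.93), Pcsk5 (0.92) and Fmnl3 (0.91), and to Cideb Pnkd (0.94), Lgals1 (0.92) and Fdx1 (0.91). Cidec was followed by Adipoq, the adiponectin gene (r = 0.97), by Mcrs1 (0.94) and by Tst (0.93). Between the groups Adipoq went the other way from Cidec, with a log2 fold change of -0.63 (edgeR adjusted p = 1.41e-04) beside 0.41 for Cidec.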

How the data were processed

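PolyA RNA of brown adipose tissue from 12 mice was quantified by the authors with Salmon, after bcl2fastq and cutadapt and on GRCm38, per the submitters' processing notes; versions and Salmon's strand setting are not given in the sources used here. The deposited files hold, per the file headers, an estimated count of reads and a TPM value (abundance scaled by effective length) for each of 140658 transcripts, 1 file per animal. Transcripts were tied to genes by GENCODE M21 identifiers without version (140137 matched), and estimated counts were summed per gene and rounded to whole numbers. After edgeR's filterByExpr (minimum count 10) and TMM scaling, cold and ctrl were compared by the robust quasi-likelihood test of edgeR (two-sided), adjusted by Benjamini-Hochberg over all genes, with a threshold of 0.05. SE is the size of the log2 fold change over the square root of F. Transcripts were tested likewise, and usage with edgeR's diffSpliceDGE and limma's diffSplice; on simulated data the first called more unchanged genes than its threshold allows and the second did not. Usage was the percent of a gene's TPM held by a transcript. Mouse numbers differ between groups, so no animals were paired, and no batch is labelled. Each mouse number is a separate animal, so p-values set the difference between groups against the spread between animals. For transcripts and usage, Salmon's error in assigning reads between transcripts of a gene was not modelled.

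The members and gene lists were chosen with earlier results of these data known. Named are all members, the 3 called genes of smallest p in each partner list, the 3 genes most like each member, and transcripts with a usage of at least 5% in a group; Plin2-202, Esrra, the markers, Pnpla2, Lipe and Pparg were named once values were known. The settings varied were RLE factors, library totals, DESeq2, limma-voom, no filter, a stricter filter (CPM of at least 1 in 6 animals), effective length offsets, coding transcripts only, muscle score or mouse number as covariate, ctrl 2 and cold 15 left out, and each animal left out; limma's diffSplice with animals left out was added after seeing the data. Promoter windows are from RefSeq (GRCm38.p6), and those of 9 members were used. Cidea, on chromosome 18, was left out of the search. R 4.3.3, edgeR 4.0.16, limma 3.58.1, DESeq2 1.42.0, Python 3.11.15, NumPy 2.4.6, pandas 2.3.3 and matplotlib 3.10.9 were used.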

Additional observations from a re-analysis of the deposited data

Results flagged for a closer look

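Of 78 groups of 6 animals examined for a sample far from the others, 2 held such a value, where chance gives about 1 in 20. Bscl2 in cold 4 stood at 358.4 CPM, and the nearest other cold animal at 265 CPM. Plin3 in ctrl 9 stood at 167.669 CPM, and the nearest other ctrl animal at 125 CPM. Neither gene passed the test between the groups, with all animals or without these.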

How the results depend on the processing

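The 6 calls of members were 5 or 6 under all 23 alternatives, and no member that passed the test changed direction. Fitm2 was the one lost, in 5 of 23, at a log2 fold change of 0.25 with mouse number as covariate (adjusted p = 0.0525), 0.24 without ctrl 2 and cold 15 (0.108), 0.28 without cold 16, 0.26 without ctrl 2 and 0.24 without ctrl 9; the cause was not tested. Among all genes, 4380 were called, and 3859 to 5086 with each animal left out. For transcripts the count was 3118, 2019 without ctrl 2 and cold 15, and 2410 to 3641 with each animal left out. For usage it was 105, 55 without ctrl 2 and cold 15, 63 to 229 with each animal left out (229 without cold 4), 224 with limma's diffSplice and 125 with limma's diffSplice without ctrl 2 and cold 15; fewer samples enter where animals are left out, and the cause of the rest was not tested. Single transcripts were less stable than genes, and Cidea-201, Cidec-204, Fitm2-201 and Plin4-202 lost their call in 6, 10, 11 and 9 of 14 alternatives. With ctrl 2 and cold 15 left out, Plin4-202 stood at an adjusted p of 0.171, Cidec-204 at 0.141 and Fitm2-201 at 0.194. Cidec-203, Plin5-202 and Plin2-201 kept theirs in all 14. No paired analysis was possible because the groups share no mouse number. Cideb had the fewest reads of the members, 158 to 543 per library.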
